A study of Mus musculus with 8 samples.

Results

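Effector and central regulatory T cells that lack Pggt1b differed in chromatin accessibility at 3174 of 54277 tested sites. Regulatory T (Treg) cells restrain immune responses. Central Treg cells (cTreg) recirculate through lymphoid organs in a resting state, and effector Treg cells (eTreg) have been activated and carry more suppressive and homing molecules. The product of Pggt1b is the catalytic chain of an enzyme, GGTase-I, that attaches a geranylgeranyl lipid to small GTPases and other proteins so that they can sit at membranes. ATAC-seq reads open chromatin through the cuts of a transposase, so a site with more counts was cut more often. A factor such as SATB1 or BACH2 that holds T cells in a resting programme usually has a long row of open sites around its gene in resting cells, and cytokine genes open with effector differentiation.

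The compared samples were 2 libraries of Pggt1b-deficient eTreg and 2 of Pggt1b-deficient cTreg, chosen by their labels, of 8 libraries in the series. The other 4 were WT cTreg and WT eTreg, also 2 each. All cells were sorted from mouse spleen and lymph nodes of mixed bone marrow chimeras, hosts that carry marrow of more than 1 donor. The labels give no strain, age, sorting markers, host, or promoter that drives the deletion, and leave unsaid if replicate libraries stem from different hosts. P-values thus measure only how far these libraries differ, which can be a technical spread.

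Deposited counts covered 79758 sites, of which 54277 passed a filter on low counts. A site low in cTreg could pass only through its counts in eTreg, so the counts of called sites describe the sites that passed. The Pggt1b-deficient cTreg libraries held 8854687 and 7153991 counts, and the eTreg libraries 2255214 and 1664702. The 4 WT libraries held 11194290 to 14974253. Of all sites, 12.5% and 16.39% had no count in the eTreg libraries without Pggt1b, against 2.6% and 2.54% in the matching cTreg libraries. The common dispersion, a measure of the spread between libraries, was 0.038 in Pggt1b-deficient eTreg and 0.00915 in Pggt1b-deficient cTreg. In such bulk libraries, more open chromatin per cell and a larger share of cells with that chromatin open cannot be told apart.

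At an edgeR adjusted p under 0.05, 1842 sites were higher in eTreg, 3.39% of those tested, and 1332 were lower, 2.45%. The median log2 fold change over all tested sites was -0.015. Changes of at least 2-fold numbered 1071 higher and 1005 lower. Of all 3174 called sites, 3172 had no overlap between the CPM values of the 2 eTreg and the 2 cTreg libraries. Calling selects sites for such a gap, so this is no further support. The share without overlap among all tested sites is not given here. The share of calls that were higher, 58.0%, depended on the test and filter: it was 43.6% with no filter on low counts, 74.3% with limma-voom, 45.3% without eTreg replicate 1 and 46.5% without eTreg replicate 2. Leaving out either cTreg library left edgeR no call in either direction, with 1634 higher and 1474 lower sites at an unadjusted p under 0.05 without replicate 1, and 1947 and 1917 without replicate 2. Leaving out eTreg replicate 2 gave 3755 higher and 4322 lower sites.

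**Figure D1:**
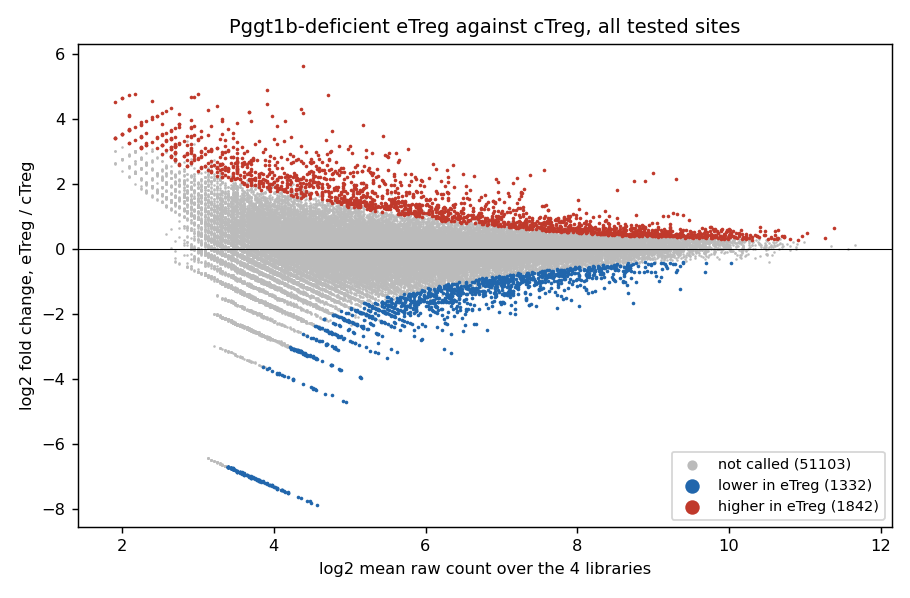
Log2 fold change of eTreg over cTreg in Pggt1b-deficient cells (vertical axis) against the log2 mean raw count over the 4 libraries (horizontal axis), 1 point per tested site. Red points are the 1842 sites called higher and blue points the 1332 called lower; the band of blue points near and below -6 holds sites with no count in eTreg, whose fitted value depends on a small added count and is no measure of size.

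Gained sites were wide and lost sites were narrower. The median width was 357 bp for sites higher in eTreg, 213 bp for lower ones and 161 bp for all tested. Among the 2578 sites wider than 800 bp, 14% gained and 1.55% lost accessibility in eTreg. Among the 15626 sites no wider than 100 bp the shares were 1.34% and 1.32%. Wide sites also held more counts, with a median mean count of 429 against 15, and the part of depth in this pattern was not tested. Called sites within 10 kb of each other shared their direction in 304 of 327 neighbouring pairs.

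Sites were then read by locus. No mm9 gene annotation was at hand, so 86 windows around 96 genes in 10 groups were set from general knowledge of where these genes lie on mm9. A RefSeq table of another build was used only to check names, and it placed 96 of 96 genes on the expected chromosome, in the same order on 20 of 20 chromosomes. A site in a window need not act on the gene the window is named for, and whether it is exonic, intronic or intergenic was not analysed here.

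The windows of quiescence and recirculation genes held more losses than gains, with many of the losses at Satb1. These 16 windows, named for factors and receptors of resting T cells, held 598 tested sites. Of these, 33 (5.52%) were lower and 5 (0.836%) higher in eTreg, against 2.45% and 3.39% of all sites. Lower sites lay in 10 windows, and the Satb1 window alone held 16 of the 33. The median log2 fold change of the 598 sites was -0.30, and 14 of 16 windows had a negative median. With 1 estimate of spread from all 8 libraries, 65 were lower and 11 higher, while DESeq2 called 19 lower and 4 higher, limma-voom 24 and 8, and edgeR without eTreg replicate 2 called 76 and 14.

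Satb1, the gene of a chromatin organiser of resting and developing T cells, stood at the head of this group. Its window on chromosome 17 held 90 tested sites, 16 lower and none higher, with a median of -0.88. Summed over the window, accessibility was 1343 and 1255 CPM in the cTreg libraries and 902.8 and 850.3 CPM in the eTreg libraries. Both eTreg libraries thus lay below both cTreg libraries. Sums without overlap were common among the windows, some housekeeping windows included. Only 17 of the 90 log2 fold changes were positive, and no site was higher at an unadjusted p under 0.05 in edgeR. DESeq2 called 9 sites lower there and limma-voom 10, with none higher in either.

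Within the Satb1 window, chr17:52317446-52317601 had 29.0 and 30.1 CPM in cTreg and 5.79 and 9.40 CPM in eTreg. Its log2 fold change was -1.93 ± 0.29 (SE; edgeR adjusted p = 0.0017). A second site, chr17:52203834-52204466, went from 47.6 and 50.0 CPM to 16.9 and 27.0 CPM, and its log2 fold change was -1.12 ± 0.21 (edgeR adjusted p = 0.00654). At the narrow site chr17:51875191-51875331 both eTreg libraries had no count, against 56 and 33 counts in cTreg. It was at least 3.63-fold lower, taking 6 counts over the group as the floor, and this bound covers counting error only. The lower sites lay across the whole window, as the plot of fold change by distance shows.

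**Figure D2:**
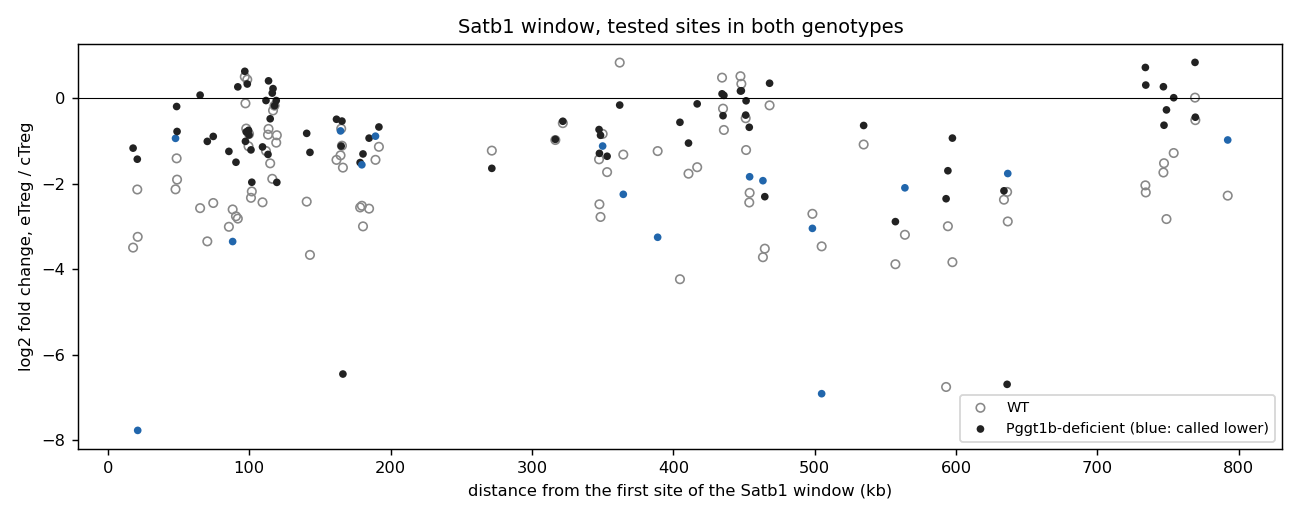
Log2 fold change of eTreg over cTreg for the tested sites of the Satb1 window (vertical axis) by distance from its first site in kb (horizontal axis), for Pggt1b-deficient cells (filled, blue where called lower) and WT cells (open). Most points of both genotypes lie below 0, with medians of -0.88 and -1.73; filled points below -6 have no count in eTreg.

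Other factors of the resting state had calls at single sites, some in both directions. Bach2, which encodes a repressor of effector programmes, had 3 lower and 2 higher sites among 77. This is near the 2.45% lower and 3.39% higher of all sites. At chr4:32647278-32647590 accessibility went from 41.6 and 41.7 CPM to 16 and 17.6 CPM (log2 fold change -1.25 ± 0.20, edgeR adjusted p = 0.00293). At chr4:32337529-32338564 in the same window it went from 30.9 and 36.5 CPM to 54.3 and 54.6 CPM, a rise of 0.76 ± 0.16 (edgeR adjusted p = 0.0135). The Bach2 window therefore held changes in both directions, at sites picked for having no overlap between groups.

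Lef1, a factor of naive and resting T cells in the Wnt pathway, was also mixed. chr3:130874145-130874422 fell from 8.18 and 12.2 CPM to 1.34 and 1.18 CPM, with 5 counts left in eTreg, a 7.84-fold ratio (95% interval 2.16 to 32.3 by Clopper-Pearson on pairs of counts). chr3:130860279-130860769 rose from 60.3 and 54.7 CPM to 78.4 and 72.9 CPM (0.46 ± 0.13, edgeR adjusted p = 0.0463). DESeq2 called no higher site in the Lef1 window. Tcf7, the close relative of Lef1, had no call among 23 sites in edgeR, DESeq2 or limma-voom, with 1 higher and 4 lower at an unadjusted p under 0.05.

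Myb, which encodes a factor linked to T cell self-renewal, lost 2 of 16 sites. chr10:20916478-20916676 went from 23.8 and 19.1 CPM to 3.56 and 7.05 CPM (-2.00 ± 0.35, edgeR adjusted p = 0.00493). Foxo1, whose product drives homing and resting genes, had 2 lower sites of 26, of which DESeq2 called none. Its relative Foxp1 had 2 of 70, near the 2.45% of all sites, and none without eTreg replicate 1. At the Foxo1 window site chr3:52072151-52072401 the libraries read 41.7 and 42.0 CPM in cTreg and 26.7 and 22.9 CPM in eTreg. Btg1, an anti-proliferative gene of resting lymphocytes, lost 3 of 57 sites, and chr10:96038080-96038217 went from 14.5 and 15 CPM to 1.78 and 4.11 CPM (-2.32 ± 0.43, edgeR adjusted p = 0.00677).

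The receptors that carry T cells through lymph nodes gave fewer calls. Ccr7, the receptor for entry into T cell zones, had a median of -0.58 over 23 sites with 1 lower: chr11:98997845-98998010 went from 11.8 and 11.3 CPM to 3.12 and 1.18 CPM. Limma-voom did not call it. Klf2, the factor upstream of S1pr1, had a median of -0.40 over 24 sites and no call in edgeR, DESeq2 or limma-voom, with 3 lower at an unadjusted p under 0.05. S1pr1, the receptor for exit from lymph nodes, had 1 higher site of 31, lost without eTreg replicate 1, and the interleukin-7 receptor gene Il7r 1 lower site of 20, which DESeq2 did not call.

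**Figure D3:**
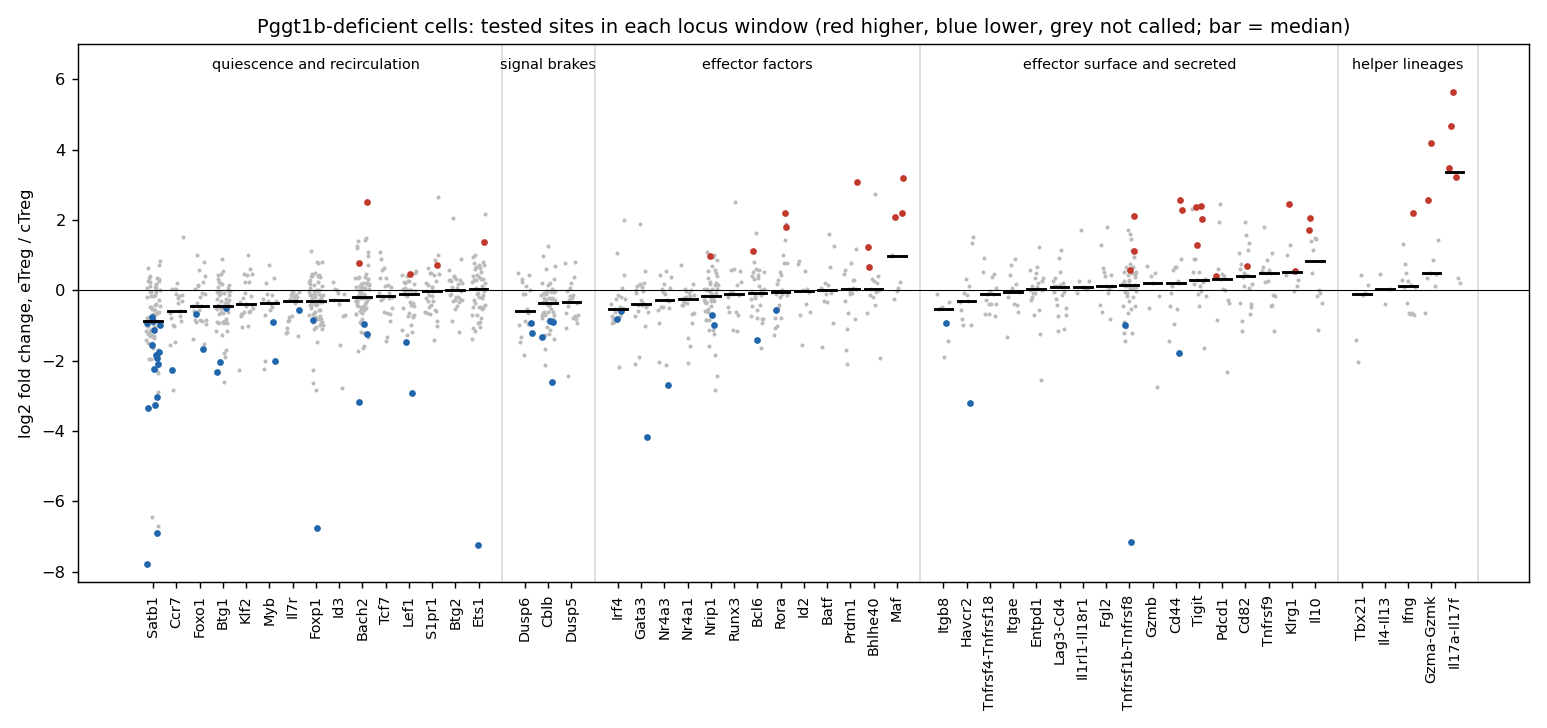
Log2 fold change of eTreg over cTreg in Pggt1b-deficient cells for the tested sites (points) of windows in 5 groups, with the median of each window as a bar. Red points are called higher and blue points lower: the quiescence group has 33 blue and 5 red points, signal brakes 6 and 0, effector factors 8 and 10, effector surface and secreted 5 and 15, and helper lineages 0 and 7.

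Of 3 genes that damp receptor signals, 2 had lower sites. The windows of Cblb, Dusp6 and Dusp5 held 92 tested sites, with 6 (6.52%, against 2.45% of all sites) lower and none higher, and a median of -0.37. The 6 lay at Cblb and Dusp6, and Dusp5 had no call in edgeR, DESeq2 or limma-voom, with 1 lower at an unadjusted p under 0.05. At an unadjusted p under 0.05 edgeR had 1 higher and 22 lower there, DESeq2 called none higher and limma-voom 1. In the window of Cblb, the gene of a ubiquitin ligase that raises the threshold for T cell activation, chr16:52142902-52143642 went from 98.0 and 86.8 CPM to 41.4 and 54.1 CPM (-0.90 ± 0.15, edgeR adjusted p = 0.00278). Dusp6, a phosphatase gene of the ERK pathway, lost 2 of 18 sites, and chr10:98749784-98750152 went from 17.1 and 20 CPM to 8.02 and 7.05 CPM (-1.22 ± 0.31, edgeR adjusted p = 0.032).

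Windows of effector transcription factors changed both ways. Among 274 tested sites in 13 windows, 10 (3.65%) were higher and 8 (2.92%) lower, close to the shares over all sites, and the median was -0.11. The balance turned in some fits, with 16 higher and 18 lower for all 8 libraries, and 8 and 10 or 19 and 29 without eTreg replicate 1 or 2. Maf, a factor that drives Il10 in several T cell types, had 3 higher sites among 9, no lower one and a median of 0.99. Its called sites were of low count: chr8:118250761-118251031 went from 1.14 and 3.20 CPM to 13.4 and 4.70 CPM, chosen here after its values were seen. The 2 eTreg libraries differed more from each other at this site than the 2 cTreg libraries did.

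Bhlhe40, a factor of activated T cells, gained 2 of 15 sites. The wide site chr6:108609136-108611024 went from 155.0 and 159.0 CPM to 241.0 and 230.0 CPM (0.66 ± 0.09, edgeR adjusted p = 0.000739), among the best counted of the named sites. chr6:108608044-108608943 beside it rose by 1.24 ± 0.22 (edgeR adjusted p = 0.00561). Rora, a factor found in tissue Treg cells, gained 2 sites and lost 1 of 25: chr9:69152498-69152734 went from 2.50 and 3.62 CPM to 15.1 and 11.2 CPM (2.19 ± 0.40, edgeR adjusted p = 0.00643). In the window of Prdm1, which encodes BLIMP-1 of effector Treg cells, 1 low-count site of 19 was higher and none lower.

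Irf4 went the other way. This factor of T cell receptor signalling is needed for effector Treg cells, and its window had a median of -0.54 over 25 sites, 2 of them lower. chr13:30852210-30852564 went from 49.7 and 45.4 CPM to 29.0 and 22.3 CPM (-0.81 ± 0.18, edgeR adjusted p = 0.0198), and chr13:30878097-30878469 from 53.3 and 59.3 CPM to 33.0 and 38.8 CPM (-0.59 ± 0.16, edgeR adjusted p = 0.0446). Summed over the window, accessibility was 356.4 and 327.1 CPM in cTreg and 224.0 and 238.6 CPM in eTreg. Both DESeq2, with 1 lower site, and limma-voom, with 2, called no higher site there.

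Gata3 and Nr4a3, an effector Treg factor and an early target of T cell receptor signals, each had 1 lower site and none higher in edgeR. Limma-voom called none in either window, and DESeq2 none at Gata3 and 1 lower at Nr4a3. Both called sites were nearly empty in eTreg: chr2:9809345-9809498 in the Gata3 window had 46 and 37 counts in cTreg and 1 and 0 in eTreg, and chr4:48061580-48061794 in the Nr4a3 window had 57 and 54 against 4 and 0. Batf, Id2, Runx3 and Nr4a1 had no call in edgeR, DESeq2 or limma-voom. At an unadjusted p under 0.05, Batf had 1 site higher and 1 lower, Id2 none, Runx3 1 higher, and Nr4a1 1 higher and 4 lower.

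Windows of surface and secreted molecules of effector Treg cells held more gains than losses. Their 17 windows held 273 tested sites, with 15 (5.49%) higher and 5 (1.83%) lower. The shares of all sites were 3.39% and 2.45%, so gains outnumbered losses among all sites too. The median of the 273 sites was 0.13, and 13 windows had a positive median. Higher sites lay in 7 windows and lower ones in 4, and 8 windows had no call. Limma-voom called 26 higher and 2 lower, DESeq2 12 and 3, the fit to all 8 libraries 33 and 10, and edgeR without eTreg replicate 1 or 2 called 16 and 7 or 36 and 14. Il10, the gene of the suppressive cytokine interleukin-10, had 2 higher sites of 12, none lower and a median of 0.82. chr1:132890113-132890761 went from 19.5 and 18.6 CPM to 69.0 and 49.9 CPM (1.72 ± 0.19, edgeR adjusted p = 0.000173). Both eTreg libraries were above both cTreg libraries, also in the summed window, at 159.0 and 138.1 CPM against 94.82 and 88.78 CPM.

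Tigit, an inhibitory receptor of effector Treg cells, had 4 higher sites of 20 and none lower. chr16:43701886-43702651 went from 3.86 and 5.29 CPM to 19.6 and 15.3 CPM (2.02 ± 0.34, edgeR adjusted p = 0.00396). Cd44, the surface marker of activated T cells, gained 2 sites and lost 1 of 15: chr2:102797067-102797607 went from 5.22 and 8.07 CPM to 26.7 and 35.3 CPM (2.29 ± 0.29, edgeR adjusted p = 0.000585). The lower one, chr2:102753274-102753457, held 102 and 75 counts in cTreg and 10 and 2 in eTreg.

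Klrg1, a receptor of terminally differentiated effector cells, gained 2 of 9 sites. chr6:122258503-122259257 went from 268.0 and 260.0 CPM to 388.0 and 350.0 CPM (0.55 ± 0.08, edgeR adjusted p = 0.00135). The window of the tumour necrosis factor receptor genes Tnfrsf1b and Tnfrsf8 was mixed, with 3 higher and 2 lower sites of 52. Tnfrsf9, which encodes the costimulatory receptor 4-1BB, had a median of 0.49 over 15 sites and no edgeR call, with 5 higher and none lower at an unadjusted p under 0.05, none in DESeq2 and 1 higher in limma-voom.

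Itgb8, the integrin chain with which Treg cells activate latent TGF-β, had a median of -0.52 over 8 sites. chr12:120442590-120443184 there went from 27.9 and 28.0 CPM to 11.6 and 17 CPM (-0.93 ± 0.25, edgeR adjusted p = 0.0399). Havcr2, the gene of TIM-3, had 1 lower site of 13 in edgeR, but DESeq2 called none, and both limma-voom and edgeR without eTreg replicate 1 called 1 higher and none lower. Gzmb, Fgl2, Itgae and Entpd1, which encode granzyme B, a secreted suppressive protein, the CD103 chain and CD39, had no call in edgeR, DESeq2 or limma-voom. At an unadjusted p under 0.05, Gzmb had 1 lower site, Fgl2 2 higher and 1 lower, Itgae 1 higher, and Entpd1 1 in each direction.

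Cytokine genes of helper lineages held the highest site. Their 6 windows had 45 tested sites, 7 (15.6%) higher and none lower, against 3.39% and 2.45% of all sites. At an unadjusted p under 0.05, 13 were higher and 2 lower. The called sites were low in cTreg and passed the filter on low counts through eTreg. Sites so low in cTreg could hardly be called lower, so the balance of directions follows in part from the filter. Neither DESeq2 nor limma-voom called one lower, and without eTreg replicate 1 edgeR called 4 higher and 2 lower. The window of Il17a and Il17f, the cytokines of Th17 cells, had 4 higher sites of 6. All 4 lay in the first 20 kb of the window's sites, counted from its first site at 20730629 on chromosome 1.

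The highest log2 fold change among the named sites was in this window, at chr1:20733926-20733995. Counts there were 4 and 2 in cTreg and 61 and 16 in eTreg, or 0.454 and 0.278 CPM against 27.2 and 9.40 CPM. The ratio was 52.4 (95% interval 16.9 to 269), the log2 fold change 5.63 ± 0.62 and the edgeR adjusted p 0.000191. The eTreg libraries did not overlap with cTreg but differed from each other, replicate 1 being the higher. The other 3 called sites were thinner, at 2.35 to 7.13 CPM in eTreg and at most 0.557 CPM in cTreg, and were chosen here after their values were seen. DESeq2 called 2 of the sites higher and limma-voom 3.

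The window of the granzyme genes Gzma and Gzmk gained 2 of 9 sites. chr13:113973556-113973637 went from 0.795 and 1.11 CPM to 21.4 and 11.8 CPM (4.19 ± 0.48, edgeR adjusted p = 0.000287). Ifng, the cytokine of Th1 cells, had 1 higher site of 14, of low count, which was lost without eTreg replicate 1. Tbx21, the master factor of Th1 cells, had a median of -0.10 over 6 sites and no call in edgeR, DESeq2 or limma-voom, with 1 lower at an unadjusted p under 0.05.

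**Figure D4:**
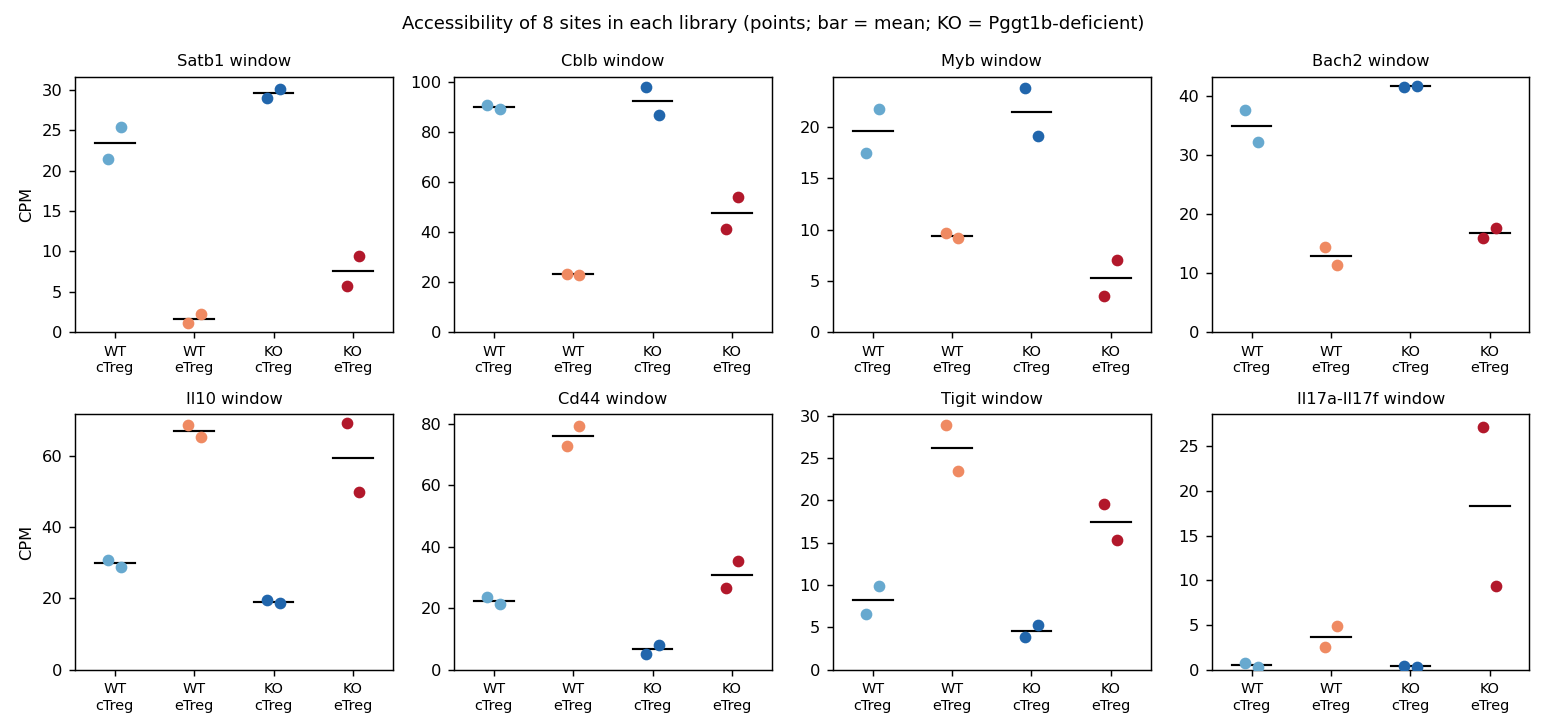
CPM of 8 sites in each library (points, with the mean of each group as a bar), for WT and Pggt1b-deficient (KO) cTreg and eTreg. In Pggt1b-deficient cells the sites of the upper row were lower and those of the lower row higher in eTreg, and the 2 eTreg points of the Il17a-Il17f window lie far apart, at 27.2 and 9.40 CPM.

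The 6 windows of Treg and T cell identity genes held 183 tested sites, with 8 (4.37%) lower and 3 (1.64%) higher, against 2.45% and 3.39% of all sites. All 6 medians were negative, with a group median of -0.20. Foxp3, the factor that defines Treg cells, had 13 tested sites with a median of -0.01 and no call in edgeR, DESeq2 or limma-voom, with 2 lower at an unadjusted p under 0.05. Its window summed to 191.1 and 181.6 CPM in cTreg and 164.8 and 183.9 CPM in eTreg, which overlapped. Il2ra, which encodes CD25, had no call among 26 sites in edgeR or DESeq2, with 1 in each direction at an unadjusted p under 0.05 and 1 higher in limma-voom. The Il2ra window summed to 309.2 and 278.6 CPM in cTreg and 254.3 and 249.1 CPM in eTreg. It was lower in eTreg without overlap, as were many other windows, the housekeeping window B2m among them. Both windows held open sites in all 4 libraries.

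Ikzf2, which encodes the Treg factor Helios, lost 3 sites and gained 1 of 39. chr1:69738610-69739323 went from 70.3 and 67.5 CPM to 21.4 and 32.9 CPM (-1.31 ± 0.18, edgeR adjusted p = 0.00108), and the higher site, chr1:69595135-69595338, had 21.4 CPM in eTreg replicate 1 and 7.05 CPM in replicate 2. The window of the costimulatory and inhibitory receptor genes Cd28, Ctla4 and Icos lost 5 and gained 1 of 79 sites. chr1:60965643-60966166 in it went from 69.4 and 76.0 CPM to 33.0 and 44.7 CPM (-0.86 ± 0.16, edgeR adjusted p = 0.00696). Il2rb, a signalling chain of the interleukin-2 receptor, gained 1 of 11 sites.

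Chemokine receptor windows gave 3 higher and 3 lower sites of 78, 3.85% each way, near the shares of all sites. The higher ones were all in the window of Ccr4, a receptor for skin homing, where counts were low, and DESeq2 and limma-voom each called 1 and edgeR without eTreg replicate 1 none. Cxcr4, the receptor for CXCL12, lost 2 of 17 sites: chr1:130498132-130498242 went from 17.4 and 16.1 CPM to 5.34 and 5.88 CPM. Ccr6, a receptor of Th17 cells and of some effector Treg cells, had a median of 0.90 over 10 sites and no call in edgeR, DESeq2 or limma-voom, with 3 higher and none lower at an unadjusted p under 0.05.

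Windows for other cell types gave 1 lower site, in the Cd8a window, and none higher among 40 in edgeR, with 3 higher and 5 lower at an unadjusted p under 0.05. DESeq2 called 1 higher there and limma-voom 2. No site lay in the windows of Ms4a1, a B cell gene, or Ncr1, a natural killer cell gene. Sums over the myeloid windows Spi1, Lyz2 and Csf1r overlapped between the subsets, with 172.3 and 150.6 CPM in cTreg and 173.7 and 170.4 CPM in eTreg for Spi1. The B cell window Cd79a summed to 129.1 and 133.3 CPM in cTreg and 105.1 and 121.6 CPM in eTreg, and Pax5 to 57.23 and 60.95 CPM against 72.6 and 62.29 CPM, neither with overlap and in opposite directions. Open sites in such windows need not come from those cell types, and their part in the calls above was not tested. Housekeeping windows gave 1 higher site of 47, in the Actb window. The B2m window summed to 330.7 and 314.8 CPM in cTreg and 282.8 and 292 CPM in eTreg. The Actb window summed to 202.8 and 212.5 CPM against 234.3 and 249.7 CPM. Neither overlapped, while the sums of Gapdh, Polr2a and Hprt did.

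The targeted gene itself was read in its window on chromosome 18. At chr18:46407338-46407406 the 2 cTreg libraries without Pggt1b had 18.1 and 13.5 CPM and the 2 eTreg libraries 18.3 and 13.5 CPM, while the 4 WT libraries had 0.371 to 0.749 CPM, from 4 to 11 counts. The 4 libraries labelled Pggt1b-deficient thus stand apart from WT at this site alike in both subsets, with a log2 fold change of 0.09 ± 0.28 between the subsets. More accessible chromatin and a DNA difference carried with the allele cannot be told apart. The windows of Rhoa, Rac1 and Cdc42, GTPases that the enzyme or its relatives modify, gave 1 higher site of 23, in the Cdc42 window, where edgeR without eTreg replicate 2 called 1 lower and none higher.

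Outside the locus list, the highest of the named sites were nearly closed in cTreg. chr7:124271352-124271565 went from 2.38 and 1.67 CPM to 36.5 and 17.6 CPM (3.80 ± 0.40, edgeR adjusted p = 0.000153). chr7:91535082-91535385 went from 1.7 and 4.45 CPM to 33.9 and 30.0 CPM (3.48 ± 0.37, with the same edgeR adjusted p = 0.000153). chr17:65208313-65208351, 38 bp wide, had 8.46 and 41.7 CPM in the 2 eTreg libraries, so its rise of 4.72 ± 0.64 rests mainly on replicate 2. The remaining named rises were at chr7:99330456-99330625, chr8:117501759-117502060, chr18:19682878-19683139, chr6:129697425-129697537 and chr15:34318906-34319033, with log2 fold changes of 3.16 to 4.29.

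The named losses were nearly empty in eTreg. Of the 10, 6 had no count in either eTreg library and the other 4 had 1 count in all. chr15:7989973-7990089 had 53 and 42 counts in cTreg and was at least 3.88-fold lower, and chr10:77849299-77849487, with 44 and 36, was at least 3.26-fold lower. chr4:32976385-32976507 kept 1 count against 123 in cTreg, a 30.1-fold ratio whose 95% interval ran from 2.63 to 609. With totals of 2255214 and 1664702 counts, the depth of the eTreg libraries sets these bounds.

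Calls were also counted by region. Of 2128 windows of 200 kb with at least 10 tested sites, 1056 held a call, 117 held calls in both directions, 8 held at least 5 higher sites and 12 at least 5 lower ones. The numbers to expect from calls spread evenly over sites were not computed, so gathering in regions was not tested. The regions below were picked for having the most calls. On chromosome 13, between 75.8 and 76 Mb, 7 of 13 sites gained and none lost accessibility, and the summed accessibility was 299.2 and 308.5 CPM in cTreg and 581.7 and 510 CPM in eTreg. On chromosome 6, between 140.4 and 140.6 Mb, 7 of 21 sites gained, and on chromosome 12, between 118.6 and 118.8 Mb, 6 of 11. Chromosome 2 between 162.8 and 163 Mb and chromosome 12 between 119 and 119.2 Mb followed with 5 of 13 and 5 of 10.

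Regions of loss were picked in the same way. On chromosome 9, between 112 and 112.2 Mb, where Arpp21, a gene expressed in thymocytes and neurons, lies by general knowledge of mm9, 7 of 15 sites were lower with a median of -1.73. Its sum went from 231.4 and 200.5 CPM to 51.67 and 95.78 CPM. On chromosome 4, between 6.8 and 7 Mb, in the region of Tox, a factor of T cell development and exhaustion, 7 of 34 sites were lower, and the sum went from 766.5 and 715.4 CPM to 399.5 and 450.7 CPM. The other windows with most losses were at 13 to 13.2 Mb of chromosome 2 (7 of 18), 52.2 to 52.4 Mb of chromosome 17 inside the Satb1 window (7 of 26) and 54.4 to 54.6 Mb of chromosome 14 (6 of 10).

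The WT libraries, which share no library with this comparison, showed the same directions at most of these sites. Of the 1842 sites higher in Pggt1b-deficient eTreg, 92.6% had a positive log2 fold change between WT eTreg and WT cTreg, and of the 1332 lower sites 5.18% did, against 47.9% of all tested sites. The median WT log2 fold change was 0.688 at the higher sites and -1.141 at the lower ones. The values without Pggt1b, 1.259 and -1.522, are those the sites were called on, so the sizes are not comparable.

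Fewer sites were called without Pggt1b than in WT at like depth. With the WT libraries thinned to the totals of the Pggt1b-deficient ones, edgeR called 6728 of 55861 sites higher, 12.0%, and 6998 lower, 12.5%. The spread between Pggt1b-deficient eTreg libraries was larger, with dispersions of 0.038 against 0.00822 in WT eTreg, both from counts before thinning. The spread at like depth was not computed, and the part of spread in the lower number was not tested. The difference between genotypes was tested directly as an interaction over all 8 libraries. The fit shares 1 estimate of spread per site among all groups. Its SE and p-values may thus understate the spread of Pggt1b-deficient eTreg. By edgeR, the interaction was higher without Pggt1b at 721 of 75352 sites, 0.957%, and lower at 418, 0.555%. Thinned to the smallest library these counts were 116 and 12, limma-voom called 152 lower, and without WT cTreg replicate 2 they were 258 and 124. Among the 1842 called higher, the interaction passed at 156 sites above 0 and at 5 below 0. Among the 1332 called lower, it passed at 42 above 0 and at 89 below 0. Both sets were called on a difference that is part of the interaction. The signs thus lean with the call by selection and are no separate result.

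**Figure D5:**
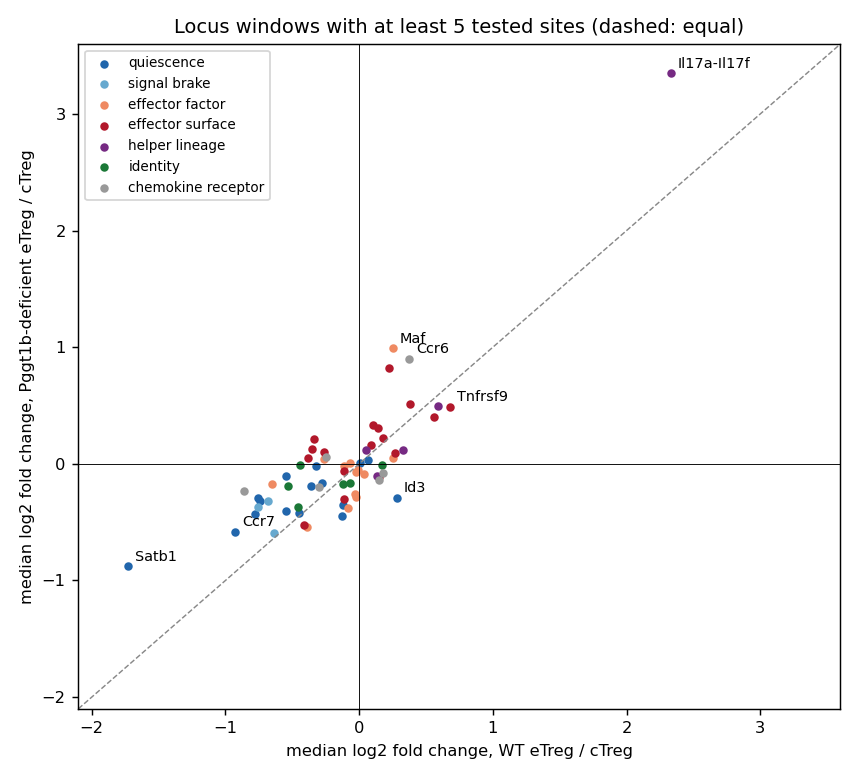
Median log2 fold change of eTreg over cTreg per window in Pggt1b-deficient cells (vertical axis) and in WT cells (horizontal axis), for windows with at least 5 tested sites, coloured by group. Satb1 lies above the dashed line of equal values, at -0.88 against -1.73, and Il17a-Il17f also lies above it, at 3.35 against 2.33. In the Il17a-Il17f window, 4 of 6 sites passed the filter through Pggt1b-deficient eTreg, which raises that median by selection. The interaction passed at 0 sites there, so its place above the line is no result.

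In the Satb1 window the interaction passed at 10 sites, all above 0. The median of the window was -0.88 without Pggt1b and -1.73 in WT. At chr17:52317446-52317601, described above, WT libraries had 21.4 and 25.4 CPM in cTreg and 1.11 and 2.32 CPM in eTreg, and the interaction was 1.75 ± 0.44 on the log2 scale (edgeR adjusted p = 0.0312). Over all 16 quiescence windows, with 598 tested sites, the interaction passed at 16 sites above 0 and at 2 below 0. Of the 16 sites, 10 were those of the Satb1 window. Over all 75352 sites of the interaction test, 0.957% passed above 0 and 0.555% below 0. The median of the quiescence windows, Satb1 included, was -0.30 without Pggt1b and -0.51 in WT.

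Cblb differed in the same direction at 1 site. chr16:52142902-52143642 had 90.5 and 89.2 CPM in WT cTreg and 23.4 and 23.0 CPM in WT eTreg, beside 41.4 and 54.1 CPM in eTreg without Pggt1b. Its interaction was 1.03 ± 0.18 (edgeR adjusted p = 0.000758). Nrip1, which encodes a nuclear receptor corepressor, had 6 sites of 49 whose interaction passed, all above 0. chr16:76337185-76337576 there rose from 27.9 and 28.1 CPM to 57.9 and 45.8 CPM without Pggt1b, while WT had 57.7 and 70.4 CPM in cTreg and 55.4 and 73.0 CPM in eTreg. It was cTreg without Pggt1b that stood below the other 3 groups.

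In the effector factor windows the interaction passed in edgeR at 7 sites above 0, 6 of them at Nrip1 and 1 at Bcl6, and at 3 below 0, at Nr4a3, Gata3 and Bcl6, among 274. Among the 273 sites of effector surface windows, 3 passed in edgeR, all below 0, at Pdcd1, the Lag3 and Cd4 window, and Itgb8. For both groups, the shares over all sites were 0.957% above 0 and 0.555% below 0. At the Il10 site above, WT libraries had 30.8 and 28.8 CPM in cTreg and 68.6 and 65.1 CPM in eTreg, and the interaction of 0.54 ± 0.19 did not pass (edgeR adjusted p = 0.154). At the Il17a and Il17f site, WT eTreg libraries had 2.50 and 4.90 CPM, beside 27.2 and 9.40 CPM without Pggt1b, and the interaction of 2.80 ± 0.94 did not pass either (edgeR adjusted p = 0.125). At Irf4, WT values at chr13:30878097-30878469 were 49.1 and 44.6 CPM in cTreg and 47.0 and 46.1 CPM in eTreg, with an interaction of -0.60 ± 0.19 (edgeR adjusted p = 0.0895).

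Some sites with a strong interaction were singled out after their values were seen. chr18:79454167-79455003 had 95.7 and 91.0 CPM in cTreg and 146.0 and 116.0 CPM in eTreg without Pggt1b, a rise, and 80.8 and 91.5 CPM against 36.1 and 43.4 CPM in WT. Its interaction was 1.66 ± 0.15 (edgeR adjusted p = 1.34e-08). chr2:9919212-9919543 fell from 57.1 and 49.0 CPM to 16.9 and 18.8 CPM without Pggt1b, and WT had 53.7 and 60.4 CPM against 42.8 and 44.4 CPM (interaction -1.15 ± 0.22, edgeR adjusted p = 0.00221). chr1:137662565-137663164 fell from 21.8 and 22.4 CPM to 8.91 and 8.23 CPM, while WT had 15.7 and 19.9 CPM in cTreg and 22.4 and 25.8 CPM in eTreg (interaction -1.75 ± 0.31, edgeR adjusted p = 0.0012).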

How the data were processed

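The 8 ATAC-seq libraries are represented by raw counts per site, as the authors deposited them. The build was mm9 per the submitters' processing notes, which name MACS2 2.1.1, bedtools, SAMtools, Picard 2.9.4 and Trimmomatic 0.36. The aligner, the read shift, the peak threshold and any pooling of libraries for peak calling remain unstated (not given in the sources used here). Whether starts count from 0 or 1 is not stated. Many counts come in pairs (66.1% to 77.4% of counts from 1 to 10 were even).

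Counts were tested with edgeR 4.0.16 in R 4.3.3 (filterByExpr with a minimum count of 10, TMM scaling, quasi-likelihood F tests, two-sided, Benjamini-Hochberg over all tested sites) on the 4 Pggt1b-deficient libraries. The interaction and the WT fold changes used all 8. CPM are scaled counts after TMM scaling over all 8 libraries. SE is that of the log2 fold change. With 2 libraries a group, the smallest exact permutation p is 0.33. Where a group had no count, the fold is a bound from 6 counts over the group; with few counts, ratios have 95% Clopper-Pearson intervals on pairs. Intervals cover counting error only.

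Named sites were called at 0.05, averaged 20 or more raw counts, did not overlap in CPM, and were the 10 with the largest change in each direction, plus up to 2 per window and direction by p. The members, windows and lists were chosen with earlier results of these data known. DESeq2 1.42.0 and limma 3.58.1 served as alternatives. The procedure was tested on simulated data. Some windows that were tested and counted in their group are not reported singly here.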

Additional observations from a re-analysis of the deposited data

Results flagged for a closer look

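The difference between eTreg and cTreg cells depended on the genotype at 721 sites with a higher and 418 sites with a lower value without Pggt1b, by the edgeR interaction test over all 8 libraries. Named sites that passed this test are listed by their window. The interaction, as a log2 difference between the genotypes, was 1.75 at chr17:52317446-52317601 in the Satb1 window, 1.05 at chr16:23984845-23985314 in the Bcl6 window, 1.03 at chr16:52142902-52143642 in the Cblb window, 0.94 at chr16:76337185-76337576 in the Nrip1 window and 0.63 at chr3:130860279-130860769 in the Lef1 window. The Bcl6 site rose from 20.6 and 21.7 CPM to 39.2 and 48.2 CPM without Pggt1b and had 26.0 and 28.4 CPM against 27.2 and 28.7 CPM in WT.

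Outside the windows, chr17:65208313-65208351 had an interaction of 4.07, with 8.46 and 41.7 CPM in the eTreg libraries without Pggt1b and at most 0.886 CPM in WT eTreg. At chr5:117960969-117961060 the fitted interaction was -7.84, but the eTreg libraries without Pggt1b had no count, so this value is no bound. The fall there was at least 3.55-fold without Pggt1b, and WT libraries had 28 and 45 counts in cTreg and 15 and 30 in eTreg.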

How the results depend on the processing

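None of the 82 named sites changed direction in an alternative that tested it, but the balance of gains and losses turned in some. With all 8 libraries in the model, the comparison gave 3461 gains and 3409 losses. Limma-voom with group weights called 2802 higher, counts thinned to the smallest library 610 higher and 337 lower, and a 2-fold minimum left 1071 higher. Without a filter 2046 were higher and 2643 lower, and DESeq2 called 831 lower. Leaving out 1 library gave 0 to 3755 higher and 0 to 4322 lower sites. The 0 came from leaving out either cTreg library, with the counts at an unadjusted p under 0.05 given above. Each such fit has 1 residual degree of freedom and assumes that the lone sample varies like the other group. Without eTreg replicate 1, 1945 were higher and 2350 lower. The interaction had 116 higher and 12 lower sites with thinned counts, 223 lower with DESeq2 and 152 lower with limma-voom. It ranged from 258 to 1074 higher and from 124 to 961 lower with 1 library left out. The cause of these shifts was not tested.

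Of 82 named sites, 82 passed with all 8 libraries, 64 with DESeq2, 70 with limma-voom, 68 without eTreg replicate 1, 78 without replicate 2 and 0 without either cTreg library. With thinned counts, 36 of the 68 sites still tested passed. No pairing by replicate number was seen: deviations of same-numbered cTreg and eTreg libraries correlated at 0.0193 across sites. With 2 libraries a group and low eTreg counts, this check cannot exclude shared hosts. With a replicate block, 1788 sites were higher and 1499 lower, and the interaction had 664 and 377. The low eTreg totals limit what changes can be seen, and most simulated 2-fold changes were missed.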
